A study of Mus musculus with 32 samples.

Results

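Brown fat burns fuel to make heat, and 10 genes that define it or run this program were described here over the interscapular brown adipose tissue of ChREBP-deficient mice. They are the identity transcription factor genes Prdm16, Ebf2, Zic1 and Lhx8, the coactivator genes Ppargc1a and Ppargc1b with the nuclear receptor gene Esrrg, the β3-adrenergic receptor gene Adrb3, and Ucp1 and Cidea, both typical of brown adipocytes. They were represented by every probe that carried one of these names in the scanner files and was listed in the deposited log2 table. There were 16 such probes for the 10 genes, out of 37306 probes under 24523 gene names that passed the intensity filter. All 16 probes were well above background on all 32 arrays, so no member was lost.

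There were 4 groups with 8 arrays each. Mice of the total ChREBP KO group are Mlxipl-null and lack the α and β isoforms of ChREBP, the glucose-responsive transcription factor that Mlxipl encodes, and ChREBPβ KO mice lack exon 1b, the exon of the β isoform. Exon 1b was removed by CRISPR/Cas9 in embryos, and the study calls the loss of both isoforms global, so neither deletion was limited to brown fat. Each KO had its own WT group, called total-line WT and ChREBPβ-line WT below. The study's text gives C57BL6/J males, and for the ChREBPβ line WT littermates and several litters. Whether the total-line WT mice were littermates, and the age of the mice, were not given in the sources used here. Every mouse was fasted for 24 hours and then refed for 18 hours with 20% glucose in its water, so no group was unchallenged. The targeted gene followed its labels, since the mean log2 intensity of Mlxipl was 16.15 in total-line WT and 13.67 in total ChREBP KO (adjusted p = 2.02e-24), and 16.34 in ChREBPβ-line WT and 14.84 in ChREBPβ KO (adjusted p = 7.09e-17). Per array, 64.4% to 71.1% of spots exceeded background clearly, with 0 saturated spots. Skeletal muscle transcripts separated the lines. The mean log2 intensity of 12 muscle genes ranged from 12.1 to 15.5 in total-line WT and from 13.5 to 14.9 in total ChREBP KO, against 5.50 to 11.2 in ChREBPβ-line WT and 5.56 to 10.6 in ChREBPβ KO. Liver transcripts varied within each group, with list means from 6.07 to 13.3 over the 32 arrays. The mean of 10 brown adipocyte markers, 8 of them genes described here, lay between 13.6 and 14.2 on every array, at 13.66 to 13.97 in total-line WT and 13.98 to 14.17 in total ChREBP KO.

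In brown adipocytes, noradrenaline from sympathetic nerves acts on β-adrenergic receptors, raises cAMP and sets free fatty acids. These fuel mitochondria and activate UCP1, the protein that lets protons return across the inner mitochondrial membrane without making ATP. EBF2 and PRDM16 set and hold the brown cell fate. PGC-1α, the product of Ppargc1a, is a coactivator induced by cAMP that drives mitochondrial and thermogenic genes, in part through estrogen-related receptors such as the product of Esrrg.

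Loss of both ChREBP isoforms went with more Ppargc1a and more Ebf2, and loss of ChREBPβ alone with more Ebf2. Values are log2 intensities after quantile normalization, differences are KO minus its own WT, and each gene is counted by its brightest probe with limma's adjusted p under 0.05 as the threshold. In total ChREBP KO, 3 of the 10 genes rose (Ppargc1a, Ebf2, Esrrg), 1 fell (Prdm16) and 6 did not pass. Of all genes, 44.1% passed in this comparison, 22.9% higher and 21.1% lower, so the members' 4 of 10 is close to that background. In ChREBPβ KO, 2 of the 10 passed, both higher (Ebf2, Adrb3), against 2.7% of all genes, 1.37% higher and 1.33% lower. At an unadjusted p under 0.05 the counts were 4 in each comparison, where 50.4% of all genes in total ChREBP KO and 14.1% in ChREBPβ KO were under it. The median difference of the 10 genes was 0.11 in total ChREBP KO and -0.03 in ChREBPβ KO, beside 0.01 and -0.003 over all genes. Fewer cells of a type and less RNA per cell cannot be told apart in these bulk samples.

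**Figure D1:**
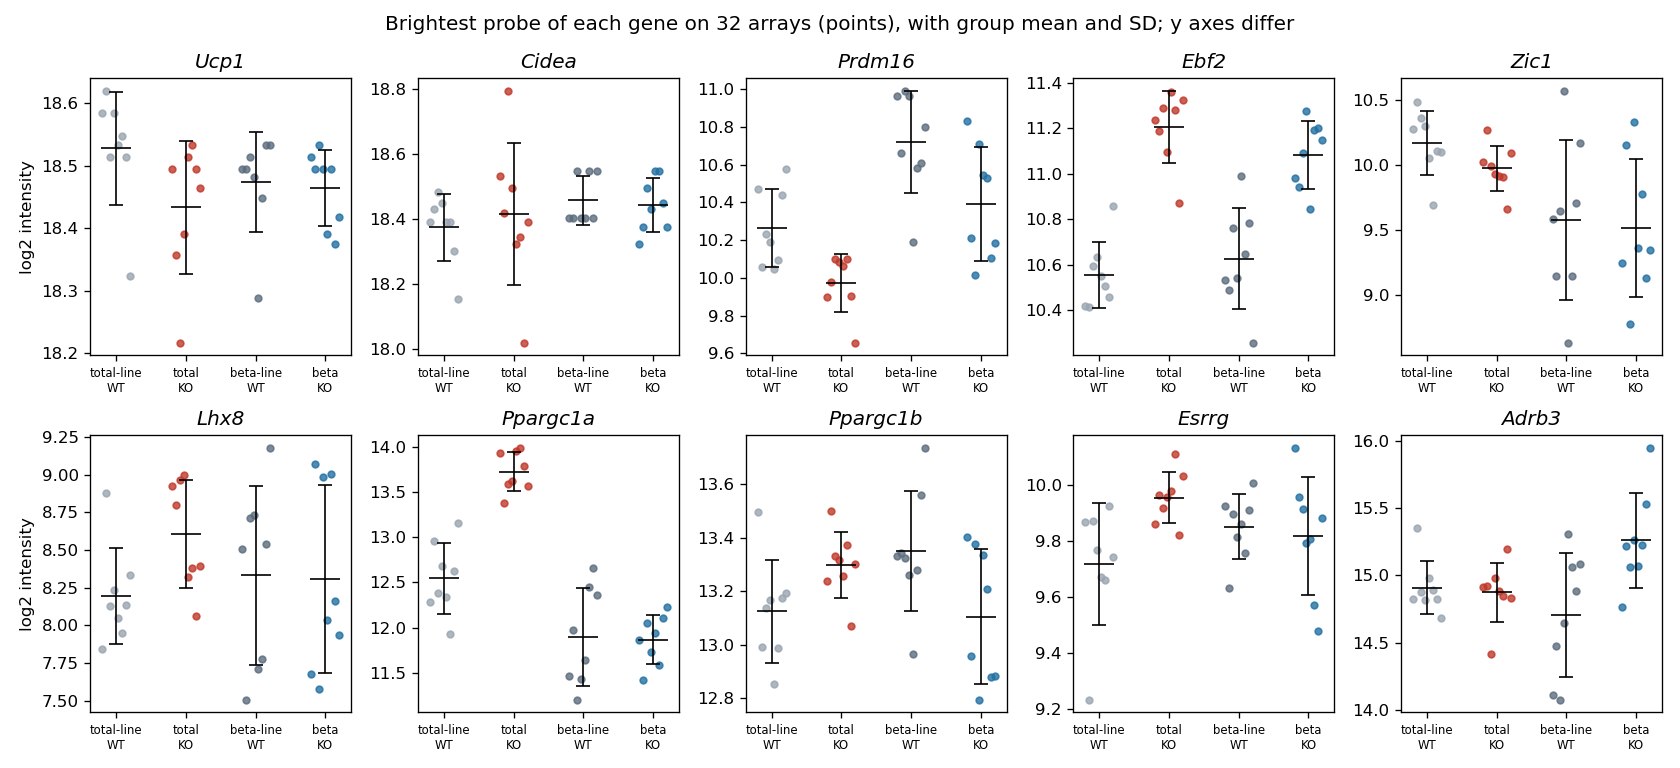
Log2 intensity of the brightest probe of each of the 10 genes (y axis, its own range in each panel) on all 32 arrays, by group of 8 (x axis). Points are arrays and bars are group mean and SD. Ppargc1a in total ChREBP KO lies between 13.38 and 13.98, above every array of the other 3 groups, and Ebf2 is raised in both KO groups.

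Among the identity genes, Ebf2, which encodes a factor that opens brown fat enhancers, had the clearest change in both lines. In total-line WT its lowest, median and highest values were 10.42, 10.53 and 10.86, and in total ChREBP KO 10.87, 11.26 and 11.36. The groups did not overlap, although the lowest KO array lay just above the highest WT array. The difference was 0.65 ± 0.08 (SE, 8 against 8 arrays), a 1.57-fold rise, with adjusted p = 1.56e-07 and an exact permutation p of 0.000155, two-sided, the smallest that 12870 splits allow. In ChREBPβ-line WT the lowest, median and highest values were 10.26, 10.60 and 10.99, and in ChREBPβ KO 10.84, 11.12 and 11.28. These groups overlapped, but all 8 KO arrays were above the WT mean and 5 above the highest WT array. Ebf2 rose by 0.46 ± 0.08 in ChREBPβ KO, or 1.37-fold (adjusted p = 0.00162). The rise was seen within each of the 4 wash batches in both lines, from 0.37 to 0.88 in the total line and from 0.28 to 0.64 in the ChREBPβ line. Each group had 1 to 3 arrays in a wash batch, so several such differences rest on 1 array of a group. With the slide as a block the ChREBPβ KO difference was 0.41 and its call was lost (adjusted p = 0.217). The 32 arrays lay on 15 slides, so a fit with this block compares few arrays within a slide. The effects of the KOs on Ebf2 differed by -0.19 (95% interval -0.44 to 0.05), which did not pass. In the order of group means, total ChREBP KO and ChREBPβ KO stood first, 0.12 apart without passing (adjusted p = 0.24), and both WT groups last, 0.07 apart without passing (adjusted p = 0.536).

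Prdm16, which encodes the zinc finger coregulator of brown fate, was lowest in total ChREBP KO. Its lowest, median and highest values there were 9.66, 10.02 and 10.101, against 10.05, 10.21 and 10.58 in total-line WT. All 8 KO arrays lay below the WT mean and 4 below the lowest WT array. Prdm16 fell by 0.29 ± 0.12 (adjusted p = 0.0412), a call near the threshold. It was lost on leaving out replicate 1, 3, 7 or 8 of the WT group or replicate 1, 2, 7 or 8 of the KO group, with adjusted p from 0.0505 to 0.0952. It was also lost with normexp background correction (adjusted p = 0.0504), with no filter on dim probes (0.0563) and with the slide as a block (0.112). In ChREBPβ KO the difference had about the same size, -0.33 (95% interval -0.56 to -0.09), and did not pass (adjusted p = 0.142). Its unadjusted limma p, 0.00804, was below the 0.0172 of total ChREBP KO, where more genes pass and the adjusted threshold is looser. The KO effects on Prdm16 differed by -0.04 (95% interval -0.37 to 0.30), which did not pass (adjusted p = 0.906). The fall is therefore not particular to total ChREBP KO. The ChREBPβ KO difference passed when ChREBPβ-line WT replicate 5 was left out (adjusted p = 0.0289). Within wash batches the ChREBPβ KO difference ran from -0.86 to 0.11, with 2 of the 4 batches higher in KO.

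Zic1 and Lhx8, developmental transcription factor genes that mark classical brown fat, varied most between arrays of the ChREBPβ line. The SD of Zic1 was 0.61 in ChREBPβ-line WT and 0.53 in ChREBPβ KO, against 0.24 and 0.18 in total-line WT and total ChREBP KO. Neither gene passed in either KO. The intervals of the differences were wide, from -0.61 to 0.22 for Zic1 and from -0.06 to 0.89 for Lhx8 in total ChREBP KO. In ChREBPβ KO they ran from -0.48 to 0.36 for Zic1 and from -0.50 to 0.45 for Lhx8. The total ChREBP KO difference of Lhx8, 0.41, passed when only the groups of that line were fitted (adjusted p = 0.0366). It also passed without the arrays whose liver list mean was above 10 (difference 0.51, adjusted p = 0.0249). Without those arrays the KO effects on Lhx8 differed by -1.21 (adjusted p = 0.0116) and ChREBPβ-line WT was 0.69 above total-line WT (adjusted p = 0.0179), neither of which passed over all arrays. The second Lhx8 probe showed no such difference, with -0.02 (95% interval -0.17 to 0.14).

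Ppargc1a had the largest difference of the 10 genes. Its brightest probe, at chr5:51848928-51848987 of build mm9, gave a lowest, median and highest value of 11.94, 12.51 and 13.16 in total-line WT and of 13.38, 13.70 and 13.98 in total ChREBP KO. Every KO array was above every WT array. The difference was 1.18 ± 0.18 (SE), a 2.26-fold rise with a 95% interval from 1.76- to 2.92-fold (adjusted p = 2.33e-06, exact permutation p = 0.000155). The second probe, at chr5:51849419-51849478, gave 1.26 ± 0.20 (adjusted p = 3.95e-06). Within the wash batches the rise was 1.00, 1.30, 1.32 and 1.31. Muscle expresses Ppargc1a too. The muscle list mean was 14.3 in both groups of this line, 0 of its 12 genes rose and 1 fell. Macrophage markers fell in the same comparison, 4 of 4 kept genes with a median of -0.68, and Th and Stmn2 fell among 5 sympathetic nerve genes. Their part in the differences of this line was not tested.

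Ppargc1a did not pass in ChREBPβ KO. The lowest, median and highest values were 11.21, 11.81 and 12.66 in ChREBPβ-line WT and 11.42, 11.90 and 12.23 in ChREBPβ KO. The groups overlapped throughout, and the difference was -0.03 (95% interval -0.40 to 0.33, adjusted p = 0.978). Within wash batches it ran from -0.57 to 0.37, with 1 of the 4 batches higher in KO. The KO effects on Ppargc1a differed by -1.21 ± 0.25 (adjusted p = 0.000561), and by -1.24 ± 0.28 at the second probe. This test of the difference passed in all 14 alternative fits and with any 1 array left out. Each KO was made in its own line, and the lines differed in muscle transcripts. KO type and line therefore cannot be told apart in this difference, for Ppargc1a or any other gene.

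Ppargc1b encodes PGC-1β, the related coactivator of mitochondrial genes, and its probes disagreed. The brightest gave 0.17 (95% interval -0.03 to 0.38) in total ChREBP KO and the other -0.21 (-0.45 to 0.03), and neither passed. In ChREBPβ KO both were negative, -0.25 and -0.29, without passing (adjusted p = 0.225 and 0.213). The KO effects on Ppargc1b differed by -0.42 ± 0.14 at the brightest probe (adjusted p = 0.0274) but by -0.08 (95% interval -0.42 to 0.25) at the other. With scaling to the 75th percentile in place of quantile normalization it missed the threshold (adjusted p = 0.0629 for the processed signal and 0.0527 for the median intensity), as it did without the arrays whose liver list mean was above 10 (adjusted p = 0.164).

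Esrrg showed a small rise in total ChREBP KO at its pair of brighter probes and the reverse at the third. The lowest, median and highest values of the brightest probe were 9.23, 9.76 and 9.92 in total-line WT and 9.82, 9.96 and 10.11 in total ChREBP KO. All 8 KO arrays were above the WT mean and 5 above the highest WT array. The difference was 0.24 ± 0.08, a 1.18-fold rise (adjusted p = 0.0204), and the second probe gave 0.26 ± 0.10 (adjusted p = 0.0257). The third probe, 421 kb away on chromosome 1 and listed under another transcript, fell by 0.23 ± 0.07 (adjusted p = 0.00926). It was dim, with means of 5.58 in total-line WT and 5.35 in total ChREBP KO, against 9.72 and 9.95 at the brightest probe. The call at the brightest probe was lost with the slide as a block (difference 0.12, adjusted p = 0.46) and without replicate 2 of the WT group (difference 0.17, adjusted p = 0.064), the array at 9.23. In ChREBPβ KO the brightest probe differed by -0.03 (95% interval -0.20 to 0.14). The KO effects differed by -0.27, which did not pass (adjusted p = 0.0947) except without replicate 1 of the ChREBPβ KO group (0.0417).

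**Figure D2:**
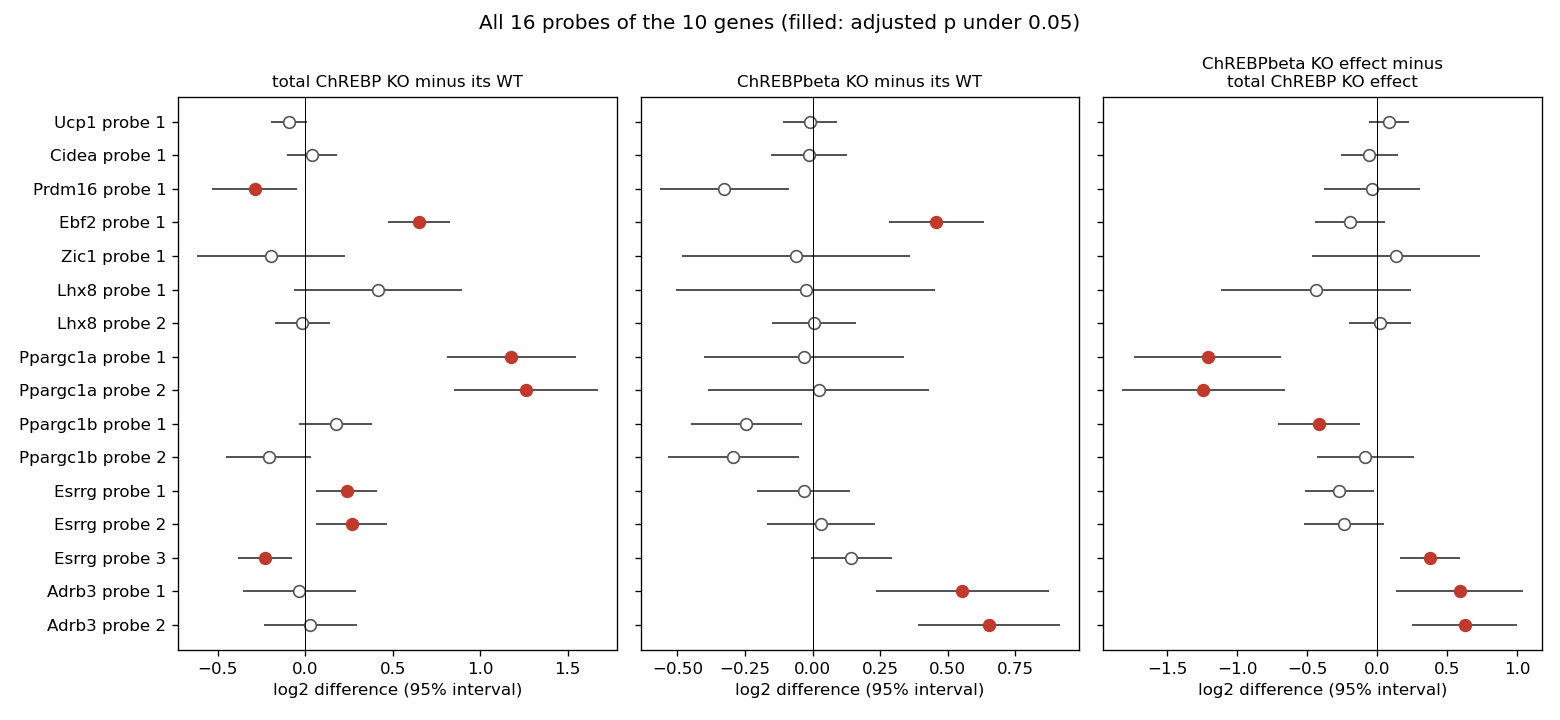
Log2 differences (x axes) of all 16 probes of the 10 genes (y axis) for total ChREBP KO, ChREBPβ KO and the difference between those effects. Points are limma estimates, lines are 95% intervals, and filled points have an adjusted p under 0.05. The probes of Ppargc1a, and those of Adrb3, give like values, whereas those of Ppargc1b and Esrrg disagree in direction in total ChREBP KO.

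Adrb3, the receptor through which catecholamines reach brown and white adipocytes of mice, was highest in ChREBPβ KO. The lowest, median and highest values of its brightest probe, at chr8:28336268-28336327 of mm9, were 14.08, 14.76 and 15.31 in ChREBPβ-line WT and 14.76, 15.22 and 15.95 in ChREBPβ KO. All 8 KO arrays were above the WT mean, but only 2 were above the highest WT array. The difference was 0.55 ± 0.15, a 1.47-fold rise (adjusted p = 0.0465), and the exact permutation p was 0.0159. The second probe, at chr8:28337864-28337923, separated the groups better, with 7 of 8 KO arrays above the highest WT array. There Adrb3 rose by 0.65 ± 0.13, or 1.57-fold (adjusted p = 0.00288). The call at the brightest probe was lost in 10 of 15 alternative fits and on leaving out 22 of the 32 arrays in turn, while the difference stayed between 0.43 and 0.68. The adjusted p was 0.051 in the deposited log2 table and 0.187 when only the groups of this line were fitted. Within wash batches the rise ran from 0.07 to 0.86. In total ChREBP KO the probes gave -0.03 (95% interval -0.35 to 0.28) and 0.03 (-0.23 to 0.29). The KO effects differed by 0.59 ± 0.22 (adjusted p = 0.0481) and by 0.63 ± 0.18 at the second probe (adjusted p = 0.0106). At the brightest probe this difference was lost on leaving out 23 of the 32 arrays in turn. It was also lost in 4 of 14 alternative fits, namely without the filter on dim probes (adjusted p = 0.0655), with the muscle covariate (0.0512), without the arrays whose liver list mean was above 10 (0.126), and without the ChREBPβ-line arrays whose muscle list mean was (0.0938).

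**Figure D3:**
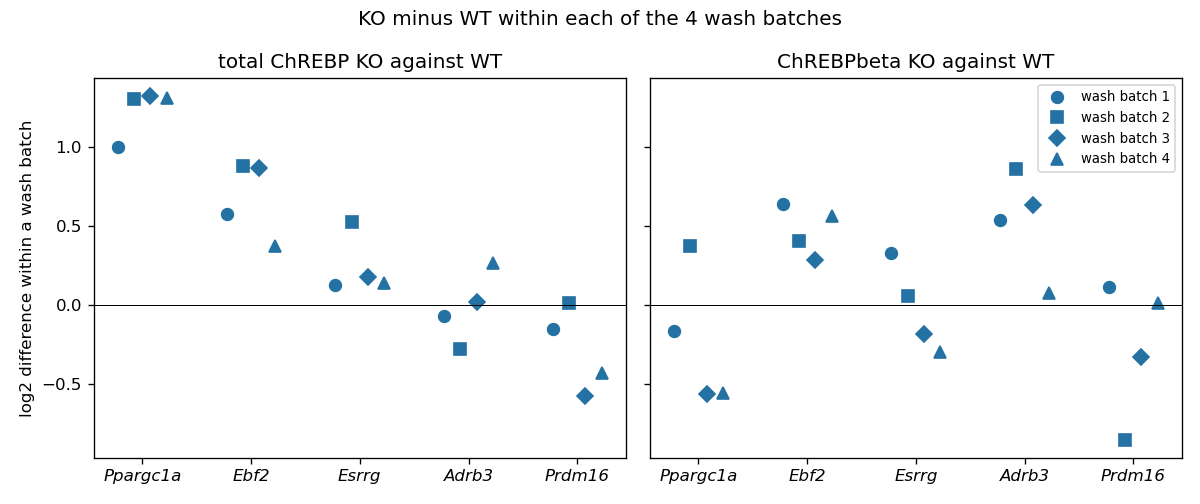
Log2 difference between KO and WT means (y axes) within each of the 4 wash batches (marker shapes) for 5 of the genes (x axes). Each group has 1 to 3 arrays in a batch. Ppargc1a and Ebf2 are above 0 in every batch of the total line and Ebf2 and Adrb3 in every batch of the ChREBPβ line, whereas Prdm16 has batches on both sides of 0.

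Ucp1 and Cidea, the heat-producing uncoupler and a lipid droplet protein abundant in brown fat, passed in neither KO. The lowest, median and highest values of Ucp1 were 18.32, 18.54 and 18.62 in total-line WT and 18.22, 18.48 and 18.53 in total ChREBP KO. The difference was -0.09 (95% interval -0.19 to 0.002, adjusted p = 0.109). In ChREBPβ KO it was -0.01 (95% interval -0.11 to 0.09). The Ucp1 probe was among the 23 brightest of 37306 on every array, where quantile normalization sets a value by rank alone, so the 32 arrays held only 16 distinct values. Scaled to the 75th percentile instead, the total ChREBP KO difference of Ucp1 changed sign to 0.07 (adjusted p = 0.473), and in the deposited table it passed at -0.11 (adjusted p = 0.0323). It also passed without replicate 8 of the total-line WT group (adjusted p = 0.0289). No direction can be given for Ucp1 in total ChREBP KO. For Cidea the differences were 0.04 (95% interval -0.10 to 0.18) in total ChREBP KO and -0.01 (-0.15 to 0.12) in ChREBPβ KO. Its probe too was among the 27 brightest with 16 distinct values, and scaled to the 75th percentile the total ChREBP KO difference of Cidea was 0.12 or 0.13 without passing (adjusted p = 0.177 and 0.14).

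The sequences just before the start sites of Ppargc1a and Ucp1 are shown because both genes are known to respond to cAMP. In total ChREBP KO the former rose, and no direction can be given for the latter. Each is 250 bases from RefSeq on build GRCm38.p6, 5′ to 3′ on the gene's strand and ending at the base before the start. Capitals mark TGACG, the core of a cAMP response element, on either strand.

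Ppargc1a, minus strand, chr5:51567726-51567975: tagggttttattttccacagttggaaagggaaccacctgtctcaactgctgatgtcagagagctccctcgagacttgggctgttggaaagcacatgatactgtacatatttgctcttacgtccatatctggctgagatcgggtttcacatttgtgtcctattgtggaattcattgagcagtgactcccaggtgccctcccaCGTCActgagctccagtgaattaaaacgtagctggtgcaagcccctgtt

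Ucp1, plus strand, chr8:83290098-83290347: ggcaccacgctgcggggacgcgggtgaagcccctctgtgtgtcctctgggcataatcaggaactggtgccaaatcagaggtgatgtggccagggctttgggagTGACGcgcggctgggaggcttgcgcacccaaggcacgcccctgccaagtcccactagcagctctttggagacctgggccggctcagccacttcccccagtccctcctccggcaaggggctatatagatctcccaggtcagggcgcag

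The core lies 45 to 49 bases before the Ppargc1a start, on the opposite strand, and 143 to 147 bases before the Ucp1 start. Of 32851 such windows listed for mouse genes, 17.8% hold it on either strand. CACGTG, the E-box of which ChREBP's response element holds a spaced pair in the same or a similar form, was in neither window and is in 6.02% of all. Of the 10 genes, Cidea and Ppargc1b were not searched, and 6 of the others had a start site in the sequence table, with 9 starts in all. Zic1 was the only one of those 6 with an E-box, 93 to 98 bases before its start. Ebf2, Adrb3, Cidea and Ppargc1b are not shown. A match is a run of letters, and bases farther from the starts were not searched. Binding was not measured, and a part of cAMP in the rise of Ppargc1a was not tested.

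Around these regulators, 76 other thermogenic genes were listed as effectors, adrenergic signalling and transcription, of which 74 had a kept probe. In total ChREBP KO 29 rose and 15 fell, and in ChREBPβ KO 5 rose and 1 fell. That is 59.5% against 44.1% of all genes, and 8.11% against 2.7%. The median difference of the 74 was 0.11 and 0.03.

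Of 25 kept effectors, 12 rose and 7 fell in total ChREBP KO, or 76% beside 44.1% of all genes. The highest were Gdf15, a stress hormone (2.22 ± 0.48, adjusted p = 0.000296), and Dio2, the deiodinase that activates thyroid hormone (2.19 ± 0.33, adjusted p = 2.43e-06). Fabp3, a fatty acid carrier, rose by 2.02 ± 0.10 and Ffar4, a fatty acid receptor, by 1.76 ± 0.19. All 8 KO arrays were above the WT mean for these 4. The muscle-type respiratory subunits Cox8b and Cox7a1, typical of brown fat, rose by 0.41 and 0.46 and the fatty acid importer Cpt1b by 0.45. The lowest differences were -3.59 ± 0.20 for Bmp8b, a secreted factor of thermogenic fat (adjusted p = 5.54e-16), and -3.16 ± 0.41 for Elovl3, the cold-induced elongase. Only 4 of 8 KO arrays were well above background for Bmp8b, and other settings gave it -5.52 to -2.50. The hormone gene Fgf21 fell by 2.42 ± 0.28 and Mpzl2 by 1.58 ± 0.08. In ChREBPβ KO only Fabp3, which rose by 0.57 ± 0.10 (adjusted p = 0.00131), and Mpzl2, which fell by 0.46 ± 0.08 (adjusted p = 0.000751), passed among the effectors. That is 8% of the list beside 2.7% of all genes. The KO effects differed for 15 of the 25, or 60% beside 25.2% of all genes. Among them was Fgf21 (3.35, adjusted p = 6.63e-08), whose ChREBPβ KO difference of 0.93 did not pass.

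Of 20 kept genes of adrenergic signalling, 8 rose and 3 fell in total ChREBP KO, or 55% beside 44.1% of all genes. In ChREBPβ KO 0 passed, and 2 had an unadjusted limma p under 0.05 (14.1% of all genes did). Those that rose included Gnas, which encodes the stimulatory G protein (0.37), the adenylyl cyclase gene Adcy3 (0.56), the protein kinase A regulatory subunit genes Prkar1a (0.43) and Prkar2b (0.22), and Gpr3, a constitutively active receptor (0.28). Pde3b, a phosphodiesterase that degrades cAMP, rose as well (0.65). Mc2r, the corticotropin receptor, fell by 0.94 and the p38α kinase gene Mapk14, which acts upstream of Ppargc1a, by 0.75. Adra1a, an α1-adrenoceptor gene, rose by 0.19 (adjusted p = 0.0145), and Adrb1, the β1-adrenoceptor gene, was at 0.19 without passing (adjusted p = 0.261).

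Of 29 transcriptional genes, 9 rose and 5 fell in total ChREBP KO, or 48.3%, close to the 44.1% of all genes. Ppara, the receptor that drives fatty acid oxidation, rose by 1.51 (adjusted p = 9.28e-15). Esrrb rose by 0.99, Tle3 by 0.73, Nrip1 by 0.66 and Cebpa by 0.57. Tle3 and Nrip1 encode repressors of thermogenic genes. Pparg, the master regulator of adipocytes, rose by 0.17 (adjusted p = 0.00669). Gabpa, Rb1, Nfia, Twist1 and the Ebf2 paralogue Ebf3 fell, by 0.28 to 0.40. In ChREBPβ KO 4 rose and 0 fell, or 13.8% beside 2.7% of all genes. They were Esrrb (0.86 ± 0.13, adjusted p = 0.00013), Ebf1, another paralogue of Ebf2 (0.54 ± 0.12, adjusted p = 0.00653), Klf11 (0.52 ± 0.10, adjusted p = 0.0023) and Gabpa (0.27, adjusted p = 0.0057). Ebf1 was at -0.05 in total ChREBP KO and the effects of the KOs on it differed (0.60, adjusted p = 0.00765). Gabpa moved in opposite directions in the lines and that difference passed too (0.67, adjusted p = 1.59e-07). Fabp3, Ebf1, Klf11 and Mpzl2 lost their ChREBPβ KO calls with the slide as a block, and Fabp3, Ebf1 and Mpzl2 also without the arrays whose liver list mean was above 10.

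**Figure D4:**
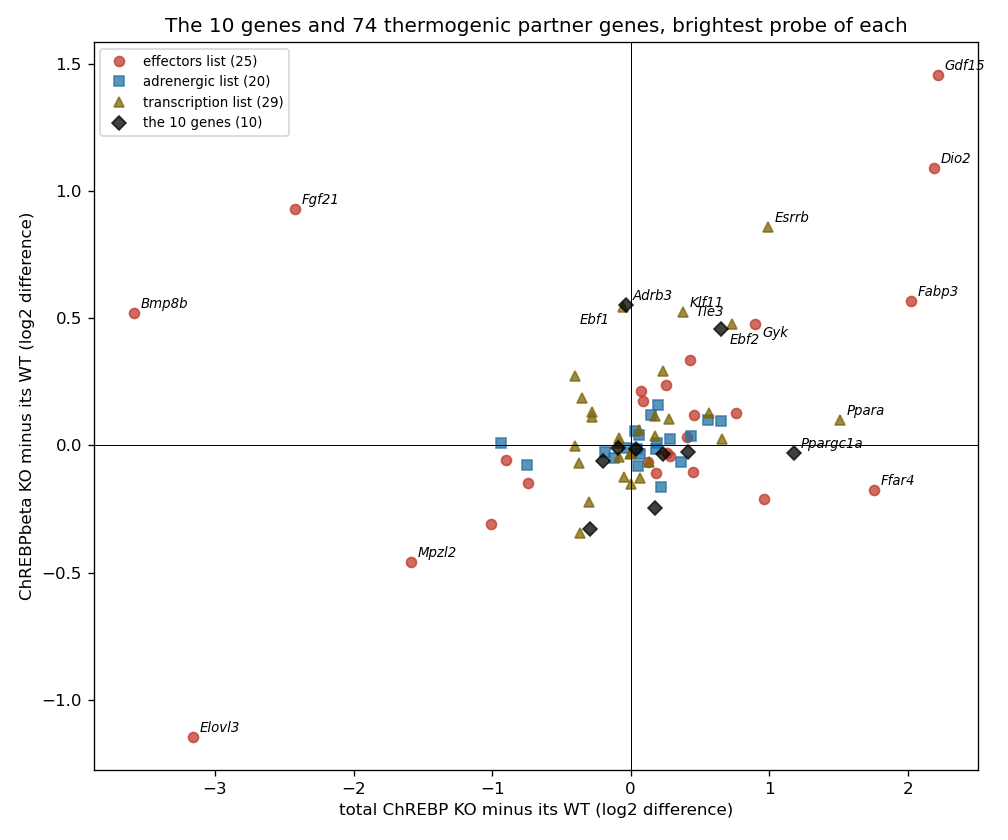
Log2 difference of the brightest probe in total ChREBP KO (x axis) and in ChREBPβ KO (y axis) for the 10 genes and 74 partner genes, with marker shapes for the lists. The 10 genes stay within 1.18 on the x axis and 0.55 on the y axis, while effectors such as Bmp8b and Elovl3 lie beyond -3 in total ChREBP KO.

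Of the 10 genes, 3 passed in the difference between the KO effects, where 25.2% of all genes did, 12.2% higher and 13% lower. These were Ppargc1a and Ppargc1b, lower in the ChREBPβ KO effect, and Adrb3, higher in it. Of the partner genes 30 of 74 passed, 15 in each direction. KO type and mouse line cannot be told apart in any of these differences.

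The WT groups of the lines differed from each other in 3 of the 10 genes, where 38.9% of all genes passed, 24.8% higher and 14.1% lower in the ChREBPβ line. Prdm16 was higher in ChREBPβ-line WT by 0.45 ± 0.12 (adjusted p = 0.00214), with 7 of 8 arrays above the highest total-line WT array. Ppargc1a was lower by 0.65 ± 0.18 (adjusted p = 0.00459) and Zic1 by 0.59 ± 0.20 (adjusted p = 0.0208). All 12 muscle genes were lower in the ChREBPβ line, with a median of -6.24, as were 4 of 4 macrophage markers with a median of -0.58. The mean of 8 white fat markers ran from 8.35 to 8.89 in total-line WT and from 7.79 to 8.28 in ChREBPβ-line WT, and that of 4 endothelial markers from 10.37 to 10.80 and from 10.79 to 11.16. The part of macrophage, white fat and endothelial transcripts was not tested. With the muscle list mean as a covariate the Prdm16 difference was 0.28 and did not pass (adjusted p = 0.389), while Ppargc1a at -1.25 and Zic1 at -1.09 passed. Without the ChREBPβ-line arrays whose muscle list mean was above 10, Ppargc1a was at -0.37 (adjusted p = 0.125) and Zic1 at -0.42 (adjusted p = 0.149), and without the arrays whose liver list mean was above 10, Zic1 was at -0.13 (adjusted p = 0.677). With the slide as a block Zic1 was at -0.50 (adjusted p = 0.137). It also missed the threshold when ChREBPβ-line WT replicate 5 was left out (adjusted p = 0.0593). Ppargc1b was 0.23 higher in ChREBPβ-line WT without passing (adjusted p = 0.0698). It passed with the wash batch or the slide as a block (adjusted p = 0.0463 and 0.0242), without the muscle-high arrays (0.0313), and on leaving out replicate 1 of total-line WT (0.0234) or replicate 5 of ChREBPβ-line WT (0.0214). At its second probe Adrb3 differed by -0.35 (adjusted p = 0.0303), against -0.20 without passing at the brightest. Among partner genes 14 were higher and 17 lower in ChREBPβ-line WT, or 41.9% of the 74. The highest were Acot2 (0.76), the secreted factor Nrg4 (0.59), Ebf3 (0.48) and Adrb1 (0.38). The lowest were the developmental factor Tbx15 (-2.37 ± 0.23, adjusted p = 1.12e-09), Cebpd (-1.89), Ffar4 (-1.39) and Dio2 (-1.30). With the muscle covariate Tbx15 was at -1.16 (adjusted p = 0.00656), Ffar4 at -2.10 and Dio2 at -2.52. Dio2 lost its call without the muscle-high arrays (-0.67, adjusted p = 0.0934) and Nrg4 with the muscle covariate (0.51, adjusted p = 0.103). Adrb1 lost it under both (adjusted p = 0.0989 and 0.441), without the liver-high arrays (0.0627) and when ChREBPβ-line WT replicate 5 was left out (0.0535).

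**Figure D5:**
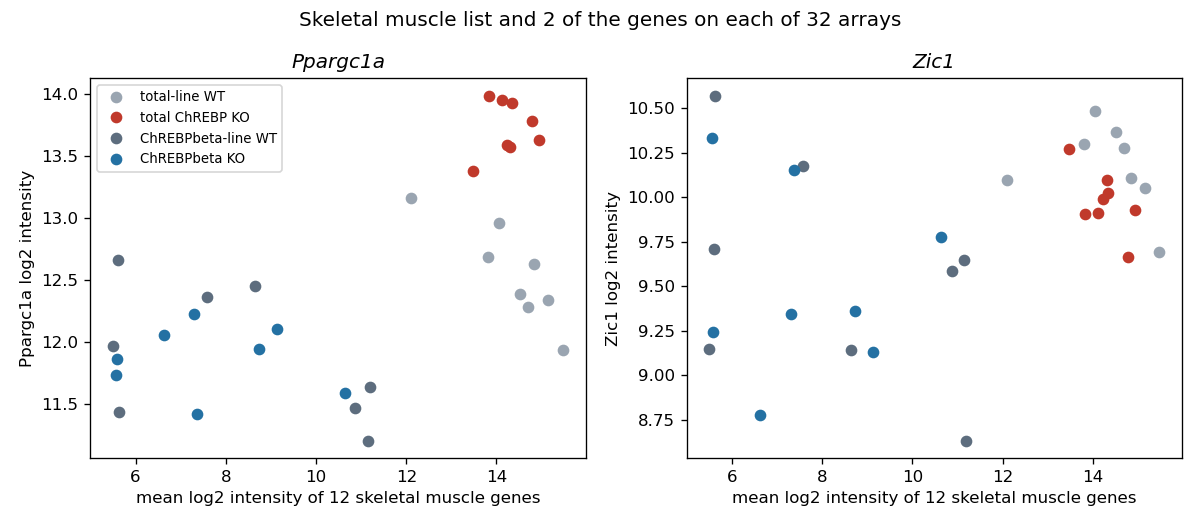
Log2 intensity of Ppargc1a and Zic1 (y axes) against the mean log2 intensity of 12 skeletal muscle genes (x axes) on 32 arrays, coloured by group. The total-line arrays lie at 12.1 or above on the x axis and the ChREBPβ-line arrays at 11.2 or below, so line and muscle transcripts cannot be told apart between the WT groups.

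The order of the group means set Ppargc1a apart. Total ChREBP KO stood above total-line WT, which stood above ChREBPβ-line WT, and both steps passed. The second step, between the WT groups, lost its call without the ChREBPβ-line arrays high in muscle transcripts (adjusted p = 0.125). In wash batch 3, with 1 array of ChREBPβ-line WT, that step was 0.21 the other way. For Adrb3 the ChREBPβ KO mean of 15.26 led total-line WT at 14.91 (adjusted p = 0.0655), and no neighbours in the order passed. The same held for Ucp1, Cidea, Zic1, Lhx8, Ppargc1b and Esrrg. For Prdm16 the last step, from total-line WT to total ChREBP KO, was the single one that passed.

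After subtraction of the group means, the probes most like each member over the 32 arrays were sought among 15362 gene names, as a description. Zic1 and Lhx8 were like each other, with a Pearson r of 0.80, and Tmeff1 followed both (0.79 for each). Among members that was the highest value, and for Ebf2 the best other member reached only 0.07. Adrb3 was most like Camsap1 (0.86), Ppid (0.86) and Lamp3 (0.83), Ppargc1a like Chd1 (0.75), Tysnd1 (0.74) and Setd2 (0.73), and Ebf2 like Kdm4a (0.75), Polr1c (0.74) and Syde1 (0.73). Ppargc1b was most like Clpp, a mitochondrial protease gene (0.79). Prdm16 was most like Prdm9 (0.83) and Ucp1 like Mcee (0.68). Arrays share wash batches and marker levels of other tissues, which such values contain. The genes named are the highest of 15362, and the values that unrelated genes would reach were not computed. For Ucp1, with only 16 distinct values, likeness is least certain.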

How the data were processed

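RNA of 32 mice was hybridised to Agilent 1-colour mouse arrays. The authors' deposited scanner output, made with Feature Extraction 10.10.1.1, gives raw spot intensity as the median over pixels. A further deposited table holds log2 values after the authors' filter and quantile normalization, with 1 median per replicated probe. Probe coordinates are those of build mm9, and the sequences before start sites are placed on GRCm38.p6. Following the study's methods, non-control spots were kept if they passed the scanner's found, positive and background tests on at least 26 arrays or at least 6 arrays of 1 group (39985 of 59305). Log2 medians were quantile normalized and replicated probes reduced to their median. The mean absolute gap to the deposited values was 0.00298.

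All probes were fitted with limma 3.58.1 in R 4.3.3 (lmFit and eBayes, 4 group means, no covariate), with p values adjusted by Benjamini-Hochberg over all 37306 probes and a threshold of 0.05. A gene was represented by its brightest probe over the 32 arrays. Single values were also tested by exact permutation of 8 against 8 arrays, two-sided. P values measure the spread between the samples of a group, which the labels number without naming the animals. On simulated data for the total ChREBP KO comparison over 37306 probes, 200 changed probes were recovered at 40% for a log2 change of 0.3, 91.5% for 0.6 and 98% for 1.2. In the measured comparison 44.1% of genes passed, which makes the adjusted threshold looser than in the simulation. These shares therefore cannot be carried over to it.

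The 10 genes and all lists were chosen with earlier results of these data known. Named partner genes were up to 4 highest and 4 lowest called in each KO comparison and between the WT groups, and further list members are named for their role, chosen after their values were seen. Alternatives were other signals and scalings, filters, wash batch, slide and replicate number as blocks, array weights, muscle and liver list means as covariates, own groups only, each array left out, other call rules, and arrays left out by their liver or muscle list mean. The last kind was chosen after seeing the data. No protein sequences were used here. Arrays have no depth; the number of arrays limits the precision.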

Additional observations from a re-analysis of the deposited data

Results flagged for a closer look

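Of 64 groups of 8 values (16 probes in 4 groups), 8 had a highest or lowest array set apart beyond Dixon's critical value for the gap over the group's range, where chance gives about 1 in 20. In total-line WT, replicate 2 was the lowest for Esrrg at its brightest probe (9.23, next 9.66) and at its second probe (8.63, next 9.13), and the highest for Adrb3 (15.35, next 14.98). Its liver list mean, 11.7, was the highest of that group. Replicate 8 of the same group was lowest for Ucp1 (18.32, next 18.51) and had that line's lowest muscle list mean, 12.1. Replicate 5 of ChREBPβ-line WT was lowest for Ucp1 (18.29, next 18.45). In total ChREBP KO, replicate 8 was lowest for Prdm16 (9.66, next 9.90), replicate 3 for Adrb3 (14.41, next 14.83) and replicate 1 for the second Lhx8 probe (7.25, next 7.57).

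The effects of the KOs differed by limma's test of the difference, ChREBPβ KO effect minus total ChREBP KO effect, at 6 probes. The values were -1.21 and -1.24 for the Ppargc1a probes, -0.42 for the brightest Ppargc1b probe, 0.59 and 0.63 for the Adrb3 probes and 0.38 for the third Esrrg probe, which was dim.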

How the results depend on the processing

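Over 65 differences of named genes and 3040 values under other settings, 2923 kept their side of the threshold, 104 lost the call, 13 gained it and 0 called values changed sign, while 56 values that did not pass changed sign. The rise of Ppargc1a and Ebf2 in total ChREBP KO passed in all 15 alternative fits and with any 1 array left out, at 1.08 to 1.34 and 0.58 to 0.66 over the fits. Ebf2 in ChREBPβ KO, Ppargc1a between the WT groups, and Prdm16, Esrrg, Adrb3, Ppargc1b, Zic1, Lhx8 and Ucp1 have settings that change a call, given beside their values.

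The count of members called in ChREBPβ KO, 2, was 1 with the processed signal or the median intensity at the 75th percentile, with normexp, in the deposited table, without the filter, with the muscle covariate, with own groups only and without the arrays high in liver or in muscle transcripts. It was 0 with the slide as a block or with a 1.5-fold minimum, and 1 to 3 with each array left out. In total ChREBP KO the count of 4 was 2 with the slide as a block and 2 with the 1.5-fold minimum. The 6 partner genes called in ChREBPβ KO were 3 with the slide as a block, 10 with array weights, 2 without the arrays high in liver transcripts, 1 with the 1.5-fold minimum and 6 to 11 with each array left out, the 11 without replicate 5 of ChREBPβ-line WT. With the 1.5-fold minimum, partner counts were 21 in total ChREBP KO, 17 for the difference between the effects and 9 between the WT groups. Between the WT groups they were 15 with the muscle covariate and 47 when any called probe counted. With the replicate number as a block, 4 and 2 members were called in total ChREBP KO and ChREBPβ KO, and 45 and 7 partner genes. Same-numbered KO and WT arrays deviated together above a correlation of 0.1 in 0 of 8 pairs of the total line and in 6 of 8 of the ChREBPβ line. Among the KO arrays of their line, 0 of 16 WT arrays were most like the one of their own number. The main fit did not pair arrays by number. For the ChREBPβ line these values do not settle whether same-numbered arrays are related. The causes of these shifts were not tested. In data simulated with 200 changed probes, 40% of log2 changes of 0.3 were recovered, a share that cannot be carried over to the measured comparison.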
